A study of Homo sapiens with 6 samples.

Results

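The chromosome 19 primate miRNA cluster was followed on 6 arrays of RNA from HuH7 cells, a long-established line from a human liver cancer (hepatocellular carcinoma), grown with or without the DNA-crosslinking platinum drug cisplatin. Members were chosen by name alone, as every human feature for miR-498, miR-512, miR-515 to miR-527, miR-1283 or miR-1323 with any suffix or arm. This gave 49 of the 2019 human miRNA features on each array, each spotted 1 time. They carry 59 mature names, because 5 features name several miRNAs, whose mature sequences are identical where they were found. The 3 control samples received no cisplatin and the 3 cisplatin samples received 1 µg/ml, both for 24 h, in the same cell line. Total RNA was labelled with Hy5 and hybridised to 1-colour arrays. The only filled channel of the scanner files, on which every intensity here rests, is named for a wavelength usual for green dyes, whereas Hy5 is a red dye; the sources used here do not settle this. Whether the 3 samples of a group were separate cultures is not said in the labels. The p-values therefore reflect the variation among these samples alone, possibly technical variation, and the number of arrays limits the precision.

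The cluster is a dense tandem array of related miRNA genes that arose in primates, in part by duplication together with Alu repeats. It is imprinted and transcribed from the paternal copy, and it is known for very high levels in placental trophoblast and for activity in some undifferentiated cells, while most adult tissues, liver included, keep it silent. Reactivation has been described in some tumours, hepatocellular carcinoma among them. A miRNA guides silencing of messenger RNAs chiefly through its seed, bases 2 to 8 from the 5′ end, so members with 1 seed can share targets. Several members have a seed close or identical to that of the miR-302 and miR-372/373 family of embryonic stem cells or of the miR-17 family of proliferating cells.

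In the RefSeq table (GRCh38.p14), the 43 hairpins of the cluster lie on the plus strand at chr19:53666679-53762430, a span of 95.752 kb. A mature sequence was found there for 40 of the 49 member features. Among these 40 there were 25 distinct seeds, of which 15 belong to 1 of the 40 each. The other members were not searched for seeds, so a seed may have more holders than counted here. The members named only are miR-520b, miR-518f-3p, miR-520f, miR-522-3p, miR-520e, miR-498, miR-527/miR-518a-5p, miR-520g and miR-519d. The first sequences shown are those of the 3 members that entered the test of cisplatin against control, with the seed in capitals.
miR-517c-3p: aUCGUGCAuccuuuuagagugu
miR-518d-3p: cAAAGCGCuucccuuuggagc
miR-524-5p: cUACAAAGggaagcacuuucuc
They lie at chr19:53741369-53741390, chr19:53734929-53734949 and chr19:53711017-53711038 on the plus strand, each in its own hairpin gene. The next are members that share a seed with these or differ from another member by 1 base, so that the array can be read for cross-reaction.
miR-517a-3p/miR-517b-3p: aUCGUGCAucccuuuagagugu
miR-518c-3p: cAAAGCGCuucucuuuagagugu
miR-518a-3p: gAAAGCGCuucccuuugcugga
miR-518b: cAAAGCGCuccccuuuagaggu
miR-520d-5p: cUACAAAGggaagcccuuuc
miR-526a/miR-520c-5p/miR-518d-5p: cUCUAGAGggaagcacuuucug
miR-519c-5p/miR-523-5p/miR-518e-5p/miR-522-5p/miR-519a-5p/miR-519b-5p: cUCUAGAGggaagcgcuuucug
miR-518f-5p: cUCUAGAGggaagcacuuucuc
The last are members whose seed is also held outside the cluster, each followed by an outside miRNA of the same seed.
miR-526b-3p: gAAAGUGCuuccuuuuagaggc
miR-17-5p: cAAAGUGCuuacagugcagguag
miR-520a-3p: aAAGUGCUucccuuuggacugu
miR-520c-3p: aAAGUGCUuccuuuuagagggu
miR-520d-3p: aAAGUGCUucucuuuggugggu
miR-302a-3p: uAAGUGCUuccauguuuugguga

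Marker miRNAs of cell types were read, which can show a liver-like profile but not the identity of the line. All 6 hepatocyte markers lay above the blank-spot limit on all 6 arrays, miR-122-5p, the dominant miRNA of hepatocytes, at 4337 to 5169 units of raw foreground. This limit was the mean plus 2 SD of the 925 spots of an array that are named BLANK. It was 220.1, 239.8 and 228.1 units on the control arrays and 208.6, 246.5 and 227.4 on the cisplatin arrays. Of 6 blood and 4 neural markers, 0 were above the limit on all 6 arrays, and of 10 stromal, endothelial and muscle markers 3 were (miR-126-3p, miR-143-3p and miR-145-5p). Of 10 miRNAs of pluripotent cells or of the neighbouring miR-371 to miR-373 locus, 0 were, with summed signal over the blank mean of 113 to 204 units in control and 145 to 232 in cisplatin arrays.

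The cluster was at or near the level of the control spots in both groups. No member was above the blank-spot limit on all 6 arrays, whereas 243 of the 2019 human features were. Control arrays had 13, 9 and 15 of the 49 members above the limit, and cisplatin arrays had 14, 1 and 9. Cisplatin replicate 2 was the low array and also had the fewest human features above its limit, 329 against 500 to 738 on the others; its blank spots had the widest SD, 17.97 units against 10.6 to 13.4. With blanks trimmed by 5% at each end, the counts were 19, 17 and 21 in control and 23, 15 and 15 in cisplatin, and with the blank median plus 2 scaled MAD 15, 10 and 17, then 12, 10 and 10. Cisplatin replicate 2 was then no lower than cisplatin replicate 3. With the blank mean plus 3 SD the counts fell to 4, 2 and 6, then 3, 0 and 0. Of all 294 member values, 61 exceeded the limit of their array, by a median of 6.94 units and at most 29.9. Raw member signal ran from 164 to 261 units, and on each array 228 to 388 human features were brighter than the brightest member. Just inside and just outside the limit, 4 members, miR-517c-3p and miR-518d-3p among them, read 240 units on control array 2, and miR-519c-3p read 239 there.

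**Figure D1:**
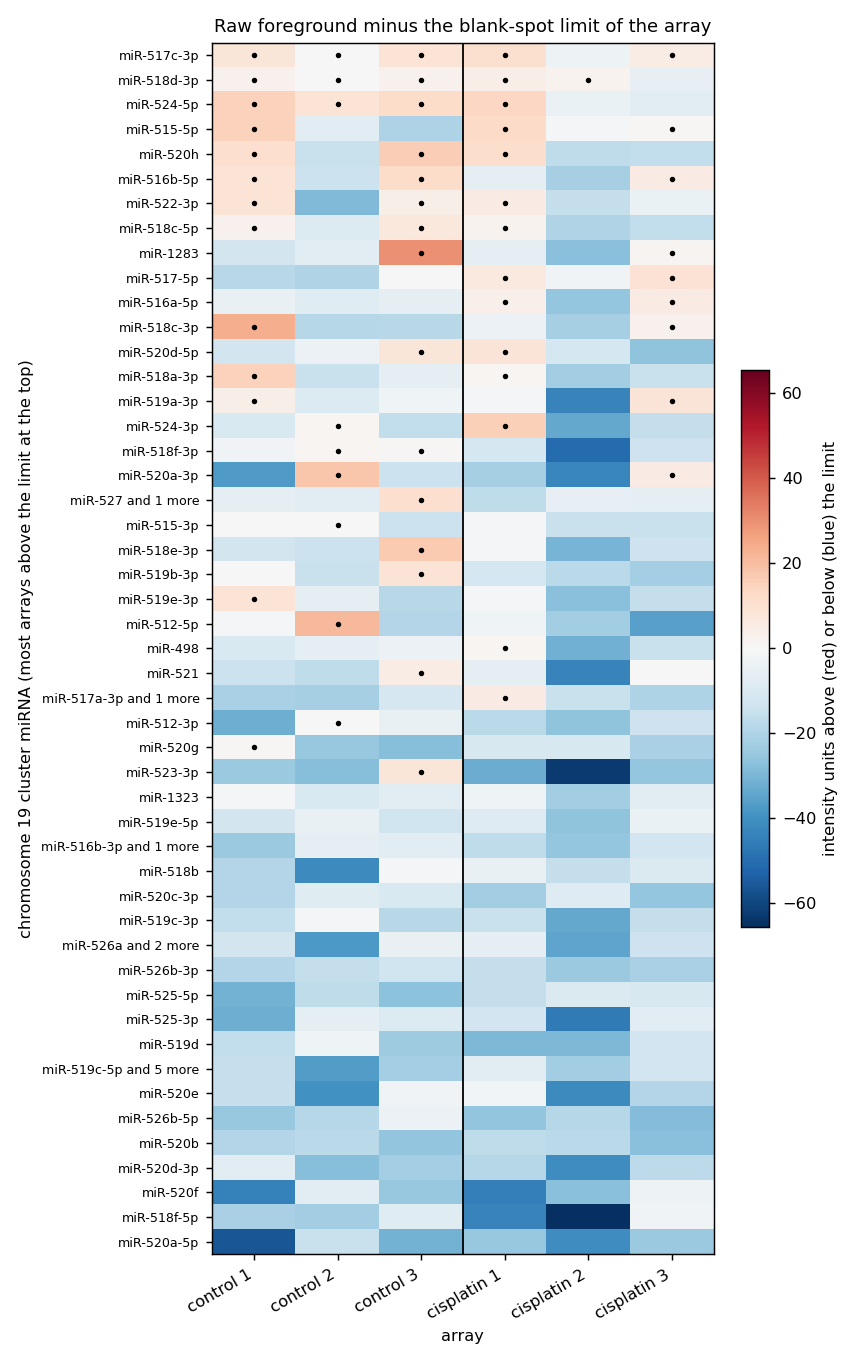
Raw foreground minus the blank-spot limit of the array, in intensity units, for each of the 49 members (rows) on the 6 arrays (columns, control left of the line and cisplatin right). Red is above and blue below the limit, and a black dot marks each of the 61 values above it. Dots thin out from the top, where miR-517c-3p and miR-518d-3p have 5, and the column of cisplatin replicate 2 holds 1 dot.

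Members were above the limit on fewer arrays than human features as a whole. Of the 49, 19 exceeded it on 0 arrays, 12 on 1, 10 on 2, 5 on 3, 1 on 4 and 2 on 5. Of all human features, 30.9% exceeded it on 0 arrays, 27.7% on 1, 16.2% on 2, 7.68% on 3, 3.27% on 4, 2.23% on 5 and 12.0% on 6. By array, 26.5, 18.4 and 30.6% of the members exceeded it on control arrays and 28.6, 2.04 and 18.4% on cisplatin arrays. The mean difference from human features outside the cluster was -9.41 percentage points (SD 3.81, members lower on 6 of 6 arrays). It did not hold on every array under the lower limit of the authors' deposited table, which lists 34.7% of members against 34.6% of all human features on control array 2 and 46.9% against 46.2% on cisplatin array 1. Median foreground differed by -1.67 units (SD 3.61, members lower on 4 of 6 arrays, exact sign-flip p = 0.312, adjusted 0.403). Spots named No Probe, 90 per array, gave 32.2, 33.3 and 52.2% on control and 30, 22.2 and 34.4% on cisplatin arrays. In share, members were thus below these control spots on 6 of 6 arrays, with a mean difference of -13.3 points (SD 8.07). In raw median they were lower on 5 and higher on 1 of 6 arrays, with a mean difference of -4.83 units (SD 3.53, exact sign-flip p = 0.0625, adjusted 0.1). The direction turned once local background was subtracted: median foreground minus background of the members was then above that of the No Probe spots by 10.3 units (SD 2.04) and above that of human features outside the cluster by 9.17 units (SD 2.48), on 6 of 6 arrays each. The members' share was above that of the 24 Negative Control spots on 6 of 6 arrays, by 6.86 points (SD 4.77). Their raw median was higher on 4 and lower on 2 of 6 arrays, by 3.08 units on average (SD 5.69, exact sign-flip p = 0.219, adjusted 0.302). In share, members were also above the BLANK spots, by 18.5 points (SD 9.96). The limit was set from these BLANK spots, so only 0.649 to 3.14% of them exceeded it per array. That difference was thus largely built in and says little about the members. An exact two-sided sign-flip test over the 6 arrays gave p = 0.03125 for each of the 4 differences in share and the 2 in background-subtracted median, the smallest p possible, and 0.0595 after Benjamini-Hochberg adjustment over 40 such comparisons. None therefore passed 0.05 after adjustment. With 6 arrays, a p at this floor could pass over 40 comparisons only if most of them reached it. The lack of a pass thus says little about the differences. Every array carried the same features at the same positions, and both groups were pooled. These p-values thus measure how alike the arrays were, not the spread over features or positions. Against the 67 features of the imprinted 14q32 cluster, the difference in share was -0.40 points (SD 5.63, lower on 2 and higher on 4 of 6 arrays, exact p = 0.969, adjusted 0.994). With local background subtracted, the members' median was 6.83 units above that of 14q32 (SD 1.33, 6 of 6 arrays, exact sign-flip p = 0.03125, adjusted 0.0595). Local background around members was lower than around 14q32 features on 6 of 6 arrays, by -9 units on average (SD 3.85).

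**Figure D2:**
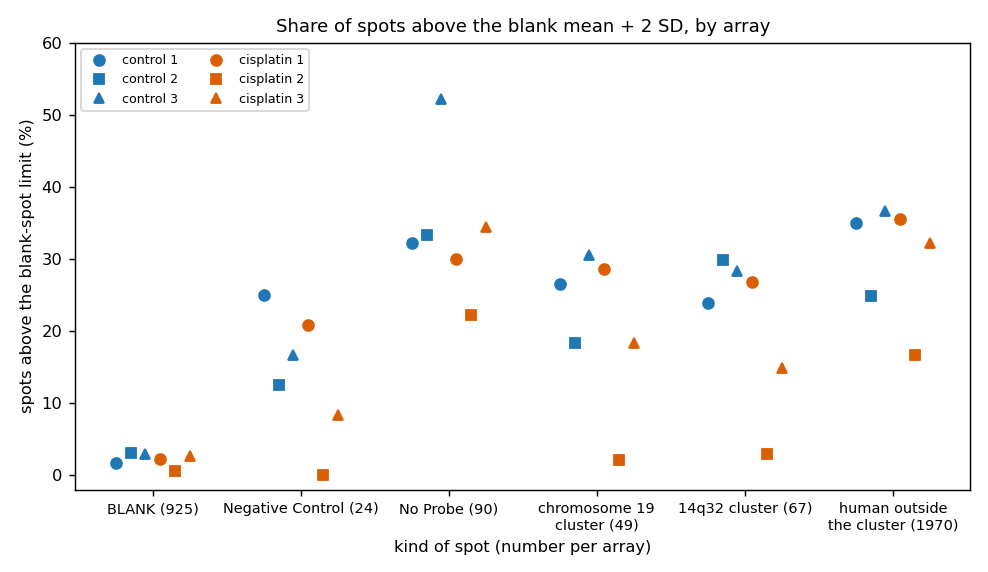
Percent of spots above the blank-spot limit, for 6 kinds of spot on the x axis with their number per array; each point is 1 array, blue for control and orange for cisplatin, with a marker shape per replicate. The chromosome 19 cluster lies between 2.04 and 30.6%, below the No Probe spots of the same array on every array.

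Members and control spots stand at different positions of the array. BLANK spots stand only in rows 7 to 10 of their block, No Probe and Negative Control spots in row 5, and 36 of the 49 members in row 1. Local background around members was lower than around other human features on 6 of 6 arrays, with a mean difference of -13.8 units (SD 2.93). The part of position in these shares was not tested beyond a comparison within row 1, which does not isolate it. There, 0 to 27.8% of the 36 members exceeded the limit per array against 41.5 to 60.2% of the 284 other human features, a mean difference of -37.3 points (SD 4.66, lower on 6 of 6 arrays, exact p = 0.03125, adjusted 0.0595). The other human features of row 1 were above the limit more often than those outside it, of which 12.5 to 32.7% were per array. Outside row 1, the 13 members were 4.69 points above the other human features on average (SD 8.91, higher on 4 of 6 arrays, exact p = 0.281, adjusted 0.375). With local background subtracted, the difference of medians in row 1 was -14.8 units (SD 2.58, members lower on 6 of 6 arrays). Outside row 1 it was -0.67 units (SD 2.66, exact sign-flip p = 0.656). The members' higher background-subtracted median over all rows was thus not seen within row 1. With a limit taken from the No Probe spots instead (mean plus 2 SD, 228.8 to 267.8 units, chosen after seeing the data), 0 of 49 members exceeded it on any array, while 10.6 to 13.8% of human features did.

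**Figure D3:**
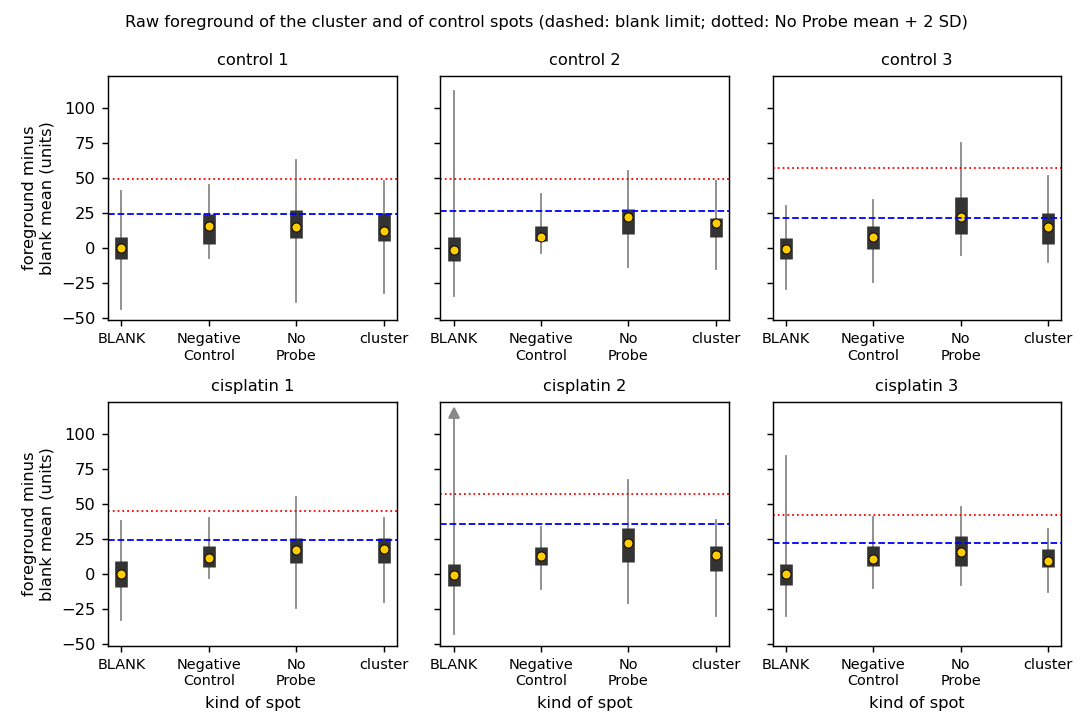
Raw foreground minus the mean of the BLANK spots, in intensity units, for 3 kinds of control spot and the 49 members, 1 panel per array. Yellow points are medians, thick bars the quartiles and thin lines the range (an arrowhead marks a range that goes on beyond the axis). No member reaches the dotted line, the mean plus 2 SD of the No Probe spots, on any array.

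Among the members, miR-524-5p, miR-517c-3p and miR-518d-3p had the highest mean raw signal. The probe for miR-524-5p, a 5p arm, read 235, 249 and 240 units on control arrays and 222, 242 and 220 on cisplatin arrays. It exceeded the limit on all control arrays and on cisplatin array 1, and the groups overlapped. miR-517c-3p, a 3p arm that is abundant in placenta, read 228, 240 and 237 in control and 219, 243 and 232 in cisplatin. It missed the limit only on cisplatin array 2, where the limit was highest, and again the groups overlapped. miR-518d-3p read 223, 240 and 231 in control and 213, 249 and 222 in cisplatin, and missed the limit only on cisplatin array 3. In the authors' deposited table, which gives foreground minus a trimmed blank mean times a factor per array, it stood at 27.0, 25.4 and 26.6 units in control and 27.3, 39.0 and 17.7 in cisplatin. The table's median over all listed features is 31 on every array. At the dim end, miR-520a-5p read 164, 225 and 197 in control and 184, 206 and 203 in cisplatin. miR-523-3p read 196, 212 and 236, then 176, 184 and 202, and miR-518f-5p read 199, 217 and 220, then 165, 181 and 225. The groups overlapped for all 3, and each was above the limit on at most 1 array.

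Further members above the limit on 3 arrays were miR-515-5p, miR-520h, miR-516b-5p, miR-522-3p and miR-518c-5p. miR-520h read 231, 225 and 244 units in control and 220, 230 and 211 in cisplatin. miR-515-5p read 235, 233 and 208 in control and 221, 245 and 228 in cisplatin, so its high arrays fell in both groups. miR-516b-5p read 229, 226 and 240 in control and 202, 225 and 233 in cisplatin, above the limit on 2 control arrays and 1 cisplatin array. miR-522-3p read 229, 211 and 232, then 214, 231 and 223, with its lowest value in a control array. miR-518c-5p read 223, 231 and 235, then 211, 227 and 211, overlapping between the groups. Those above it on 2 arrays were miR-1283, miR-517-5p, miR-516a-5p, miR-518c-3p, miR-520d-5p, miR-518a-3p, miR-519a-3p, miR-524-3p, miR-518f-3p and miR-520a-3p. The largest single value among these was 258 units, reached by miR-1283 on control array 3 and by miR-520a-3p on control array 2. miR-1283, whose genes lie within the cluster at more than one place, read 208 and 233 on the other control arrays and 203, 219 and 229 in cisplatin. miR-520a-3p read 183 and 214 on the other control arrays and 187, 204 and 233 in cisplatin. For both, the peak value was not repeated on the other arrays of the group. miR-517-5p went the other way, with 202, 220 and 228 in control and 215, 244 and 237 in cisplatin, and its groups overlapped too. The highest member value of all, 261 units, belonged to miR-512-5p on control array 2; its other values, 219, 209, 206, 224 and 192, were below their limits. By arm, 9 of 22 3p features, 7 of 14 5p features and 2 of 13 without an arm or with several names were above the limit on at least 2 arrays. Along the cluster, 25 members have 1 locus each. Of the 19 that lie 5.30 to 44.4 kb from its start, 5 were above the limit on at least 2 arrays and 11 on 0. Of the 6 at 53.4 to 75.9 kb, 4 were above it on at least 2 and 1 on 0. Over all human features, 30.9% were above the limit on 0 arrays, 27.7% on 1 and the rest on at least 2. No arm or stretch was tested, since members are not replicates.

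Members of 1 seed were not always above the limit on the same number of arrays. Among members with a sequence, the seed AAAGCGC is held by miR-518d-3p, miR-518c-3p, miR-518a-3p and miR-518b, which were above the limit on 5, 2, 2 and 0 arrays. The seed UACAAAG is held by miR-524-5p and miR-520d-5p (4 and 2 arrays), and UCUAGAG by 3 features that name 10 mature 5p miRNAs and were above the limit on 0 arrays. Features that differ by 1 base offer a closer look, with positions counted from 1 at the 5′ end of the first named. miR-517c-3p and miR-517a-3p/miR-517b-3p differ by U12C, yet the former was above the limit on 5 arrays and the latter on 1. The former was brighter on 6 of 6 arrays, by a median of 21 units. miR-526a/miR-520c-5p/miR-518d-5p differs from the feature named for miR-519c-5p by A15G (median absolute difference 2 units) and from miR-518f-5p by G22C (13 units). Over the 3 near-identical pairs the median absolute difference was 11.5 units, beside 13 units over all 780 pairs of members with a sequence. Such close sequences can share labelled RNA on a hybridisation array, so the level of a single member is uncertain.

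Of the 1698 human features with a RefSeq sequence, 14 outside the cluster carry the seed of a member. The rest of the 2019 features were not searched, so further features may carry such a seed. miR-526b-3p has the seed AAAGUGC of the miR-17 family, whose miRNAs promote proliferation, and after the seed it equals miR-17-5p at 5 of 14 positions. It read 201, 224 and 215 units in control and 193, 222 and 206 in cisplatin, below the limit on all 6 arrays. Of the outside features with that seed, miR-17-5p read 2351 to 4059 units, miR-106a-5p 2283 to 3414 and miR-20a-5p 1711 to 3249, all above the limit on 6 arrays. The seed AAGUGCU of miR-520a-3p, miR-520c-3p and miR-520d-3p is also that of miR-302a-3p, miR-302b-3p, miR-302c-3p, miR-302d-3p, miR-302e and miR-373-3p. miR-520c-3p equals miR-373-3p at 8 of 14 positions after the seed. miR-520a-3p was above the limit on 2 arrays and the other two on 0, while the outside features were above it on 0 to 3 arrays.

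**Figure D4:**
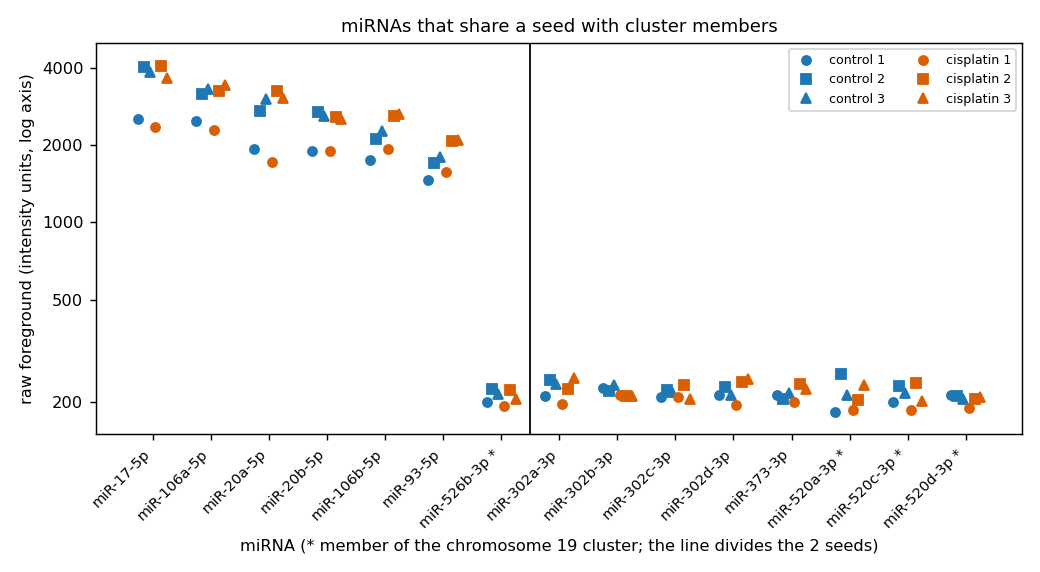
Raw foreground in intensity units on a log axis, for members (asterisk) and outside miRNAs of the same seed; each point is 1 array, blue for control and orange for cisplatin. Left of the line, 6 miR-17 family features lie at 1460 to 4059 units and miR-526b-3p at 193 to 224. Right of it, the miR-302 and miR-373 features and 3 members lie near the blank-spot limits.

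The cisplatin comparison asked whether members changed after 24 h of drug. Members above the limit averaged 12.3 ± 3.06 per control array and 8 ± 6.56 per cisplatin array (SD, n = 3 each), a difference of -4.33 with p = 0.5 in a two-sided exact permutation test, where 0.1 is the lowest p that 3 against 3 allows. Without cisplatin replicate 2 the difference was -0.83, without cisplatin replicate 1 it was -7.33, and with trimmed blanks it was -1.33. The count of all human features above the limit was also lower, at a mean of 647 per control and 562 per cisplatin array. That difference was -85.3 (exact permutation p = 0.6). As a share of features it was -4.23 percentage points, beside -8.84 for the members, so the drop was not confined to the cluster. Median raw foreground over all 49 members was 208, 231 and 222 units in control and 202, 224 and 214 in cisplatin arrays. The difference of means was -7 units (exact permutation p = 0.5). Within same-numbered pairs, a comparison added after seeing the data, it was -6, -7 and -8 units, lower in cisplatin in 3 of 3 pairs (exact two-sided sign-flip p = 0.25, the smallest that 3 pairs allow). Over all human features the median foreground differed by -5.67 units (exact permutation p = 0.6), also lower in cisplatin in 3 of 3 pairs. For the members, the difference of means was -13.2 without control replicate 1, -12.3 without cisplatin replicate 2, -1.67 without control replicate 2 and -1.33 without cisplatin replicate 1. The difference was -1.53 units once the blank mean of each array was subtracted (p = 0.7, same exact test). Subtracting the local background instead turned it to 2.67 units (exact p = 0.7). Taken as unpaired groups, control and cisplatin arrays overlapped in each of these measures.

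Only 3 members were above the limit on all 3 arrays of a group and so entered the limma fit, all of them through the control group, which bears on their direction. None passed an adjusted p of 0.05, where 0.309% of the 324 tested features did, a single one. On the log2 scale after background correction and quantile normalization, miR-524-5p stood at 7.08, 7.08 and 6.95 in control and 7.09, 6.96 and 6.79 in cisplatin. Its difference was -0.09 (SE 0.0937, 95% interval -0.32 to 0.15, limma adjusted p = 0.760). miR-517c-3p stood at 6.69, 6.76 and 6.72, then 6.79, 6.70 and 6.65, a difference of -0.01 (SE 0.0554, interval -0.15 to 0.13, limma adjusted p = 0.963). Its values interleaved between the groups, as did those of the others. miR-518d-3p stood at 6.31, 6.55 and 6.29, then 6.32, 6.61 and 6.07, a difference of -0.05 (SE 0.156, interval -0.44 to 0.34, limma adjusted p = 0.944). The median of the 3 was -0.05, beside -0.01 over all tested features. The offset of 50 in the background correction shrinks differences of such dim probes. With a replicate block (samples paired by their number), limma passed 0 features in all (57 at unadjusted p under 0.05), and 0 of the 3 members.

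**Figure D5:**
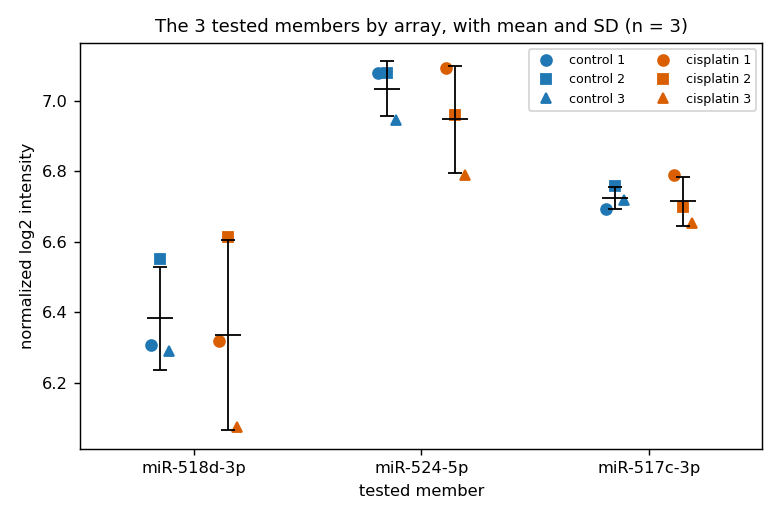
log2 intensity after normexp and quantile normalization for the 3 members that were tested, with control in blue and cisplatin in orange; points are arrays, and bars the group mean ± SD (n = 3). The groups overlap for each member, and differences lie between -0.09 and -0.01.

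With no filter on dim features, 0 of the 49 members passed, as did 0% of all 2019 human features. Their log2 differences ran from -0.30 to 0.32, 20 above 0 and 29 below, with a median of -0.03 beside -0.0041 over all human features. By unadjusted p under 0.05, 2 of 49 members were called, beside 4.8% of all features, a share near the background. These were miR-518f-3p (-0.30, SE 0.110, limma unadjusted p = 0.0260) and the feature named for miR-519c-5p and 5 further 5p miRNAs (0.32, SE 0.122, limma unadjusted p = 0.0295), both with adjusted p = 0.941. They were named after their values were seen. miR-518f-3p read 218, 241 and 229 units in control and 197, 196 and 214 in cisplatin, and was the only member whose raw groups did not overlap. This is 1 of 49 lower in cisplatin, beside 4.56% of all human features, and 0 of 49 were higher, beside 2.03%. Raw means were lower in cisplatin for 41 of 49 members (83.7%), but also for 66.5% of all human features and 71.4% of BLANK spots. After the blank mean of each array was subtracted, 30 of 49 members were lower (61.2%), beside 49.2% of human features.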

How the data were processed

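Scanner files of 6 arrays were used. They hold linear intensity, per the file headers pixel medians and means for every spot and the background around it. No source used here names the scanner. The authors' deposited table holds intensity too, equal to the foreground minus the blank mean (5% trimmed at each end) times a factor per array (relative residual at most 4.52e-10), and was used as an alternative.

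Intensities, as deposited, were corrected with normexp (offset 50, fitted on all spots), quantile-normalized over the human features and taken to log2 with limma 3.58.1 in R 4.3.3. Tested were the 324 features above the blank mean plus 2 SD on all 3 arrays of a group, with lmFit and eBayes and Benjamini-Hochberg adjustment at 0.05. Shares and medians per array were compared with exact permutation or sign-flip tests. Figures were drawn with matplotlib 3.10.9. The fit was tested on simulated log2 values with independent normal noise. These had no background correction, normalization or pairing, so only the fit step was checked. Of the deposited columns of sample values, 0 were left without a sample.

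Members, marker lists and alternatives were chosen with earlier results of these data known. Named are tested members, those above the limit on at least 2 arrays, the 3 brightest and 3 dimmest by mean raw foreground, and up to 3 outside features per shared seed; other names illustrate a seed or a 1-base difference. Same-numbered samples deviated together from their group means (correlations 0.440, 0.235 and 0.204), so the label numbers were taken as pairing, although control 3 and cisplatin 2 did too (0.229). Control arrays occupied slide positions 1 or 3, and cisplatin arrays 2 or 4, so the groups and positions cannot be told apart.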

Additional observations from a re-analysis of the deposited data

How the results depend on the processing

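The count of members that passed was 0 under all 21 alternatives, and their smallest adjusted p in limma ran from 0.384 to 0.941. The count over all tested features, 1 as reported, moved to 3 with no background correction, 2 with 75th percentile scaling, 4 with median scaling and 4 with cyclic loess. It was 0 in limma (features with unadjusted p under 0.05 in parentheses) with no normalization (33), features above the limit on all 6 arrays (39), no filter (97), a blank limit of mean plus 3 SD (40), trend and robust moderation (38), the replicate block (57), the authors' deposited values (26) and pixel means (34). It was 47 with slide position as a random block, whose estimated correlation was negative (-0.62), so that this count is not relied on. Leaving out 1 array gave 0 to 3, with 3 only without cisplatin replicate 2 and 42 to 57 at unadjusted p under 0.05. The median of the tested members (-0.05) was 0.0084 with no background correction, -0.11 with plain subtraction, -0.21 with 75th percentile scaling (which moved the median of all tested features to -0.09), -0.14 with median scaling and 0.014 with the authors' deposited values (median of all tested features 0.14). Leaving out 1 array moved it between -0.093 and 0.020. miR-518d-3p turned to 0.010 with no background correction and 0.014 with the authors' deposited values, and ranged from -0.18 to 0.081 without 1 array. miR-517c-3p turned to 0.0084, 0.0031, 0.056 and 0.068 with no background correction, the random block, the authors' deposited values and pixel means, and ranged from -0.050 to 0.020. miR-524-5p ranged from -0.26 to -0.0081 over 19 alternatives, a sign that its entry through the control arrays favours. The difference in members above the limit ran from -7.33 to -0.83 without 1 array and was 0 with pixel means and 0 with the No Probe limit, and the median foreground difference ran from -13.2 to -1.33 without 1 array and was 2.67 with local background subtracted. No member was tested with the mean plus 3 SD limit or on all 6 arrays. The cause of these shifts was not tested. Signal over background limits every value here, since no member exceeded its limit by more than 29.9 units.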
